A study of Mus musculus with 2 samples.

Results

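The sarcomere is the contractile unit of striated muscle, and its proteins are encoded by families of genes whose members replace each other in fast, slow, embryonic and cardiac fibres. The set described here holds 46 mouse genes for sarcomere proteins and their regulators, chosen by gene symbol, with 82 of the 45101 probe sets of the array and 46 of its 18194 named genes. Symbols were those of the platform annotation, and 2 further probe sets that carried the symbols of Myh7 and Myh6 together were not used (values of 2.23 to 2.29 on both arrays). The set was proposed with earlier results of the same arrays known, so the direction of its differences is a description and supports nothing further.

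Expression was measured on 1 array of the bulge and 1 array of the hairshaft, cut by laser from eosin-stained frozen skin of C57Bl6 mice aged 21 days. The labels name no treatment, allele or transgene for either group. How the structures were recognised, the body site and the number and sex of the mice are not stated in the labels. Values are log2 GCRMA summaries (a background-corrected and normalized measure of probe brightness), and with 1 array per structure no spread between replicates and no test could be had. The number of arrays limits the precision.

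In a striated fibre, thick filaments of myosin pull on thin filaments of actin, tropomyosin and troponin, and calcium binding to troponin C switches the pull on. Myosin heavy chains set the speed of the fibre, and light chains, troponin subunits and Z-disc proteins come in fast and slow forms that usually go together. Titin and nebulin act as molecular rulers, the Z-disc anchors thin filaments and the M-band links thick ones. Mouse skin has a thin sheet of striated muscle, the panniculus carnosus, below the dermis and fat, and this sheet is known as a fast muscle.

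Each gene is given by the brightest of its probe sets, taken over the mean of the 2 arrays. Background was read from 80 probe sets of olfactory and vomeronasal receptors, whose 95th percentile of 2.68 on each array served as the floor. A value that did not exceed the floor was replaced by it, and the resulting difference, a lower bound, is written as "at least". All differences are log2 values of the bulge less those of the hairshaft, and levels of different genes are not ranked against each other, because probes differ in brightness. Bright signals can be compressed, which can make the differences of the brightest genes too small; this was not tested.

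Of the 46 genes, 31 exceeded the hairshaft value by 8-fold or more in the bulge, Xirp1 did so by between 2-fold and 8-fold, Tnnt2 was higher in the hairshaft by more than 2-fold, 7 were under 2-fold apart and 6 were below the floor on both arrays. Among all 13329 genes above the floor, the share higher in the bulge was 3.02% at 8-fold or more and 11.4% at 2-fold or more, and the share higher in the hairshaft was 4.91% at 2-fold or more. The median difference over the 40 sarcomere genes above the floor was 7.97, beside 0.00 over the 13329 genes. Over all 46 members without a floor the median was 6.62. The 13329 genes include dim ones listed at the same value on both arrays, so their 0.00 is not a measured equality. The shares above are taken over such genes too. With bounds ranked at their value, 11 of the 15 genes with the largest difference towards the bulge were from the set (Acta1, Tnni2, Myl1, Tnnc2, Myh1, Tnnt3, Ttn, Myh4, Tcap, Myom2 and Mybpc2), and of the first 100, 25. More fibres in the cut tissue and more RNA per fibre cannot be told apart in such samples.

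**Figure D1:**
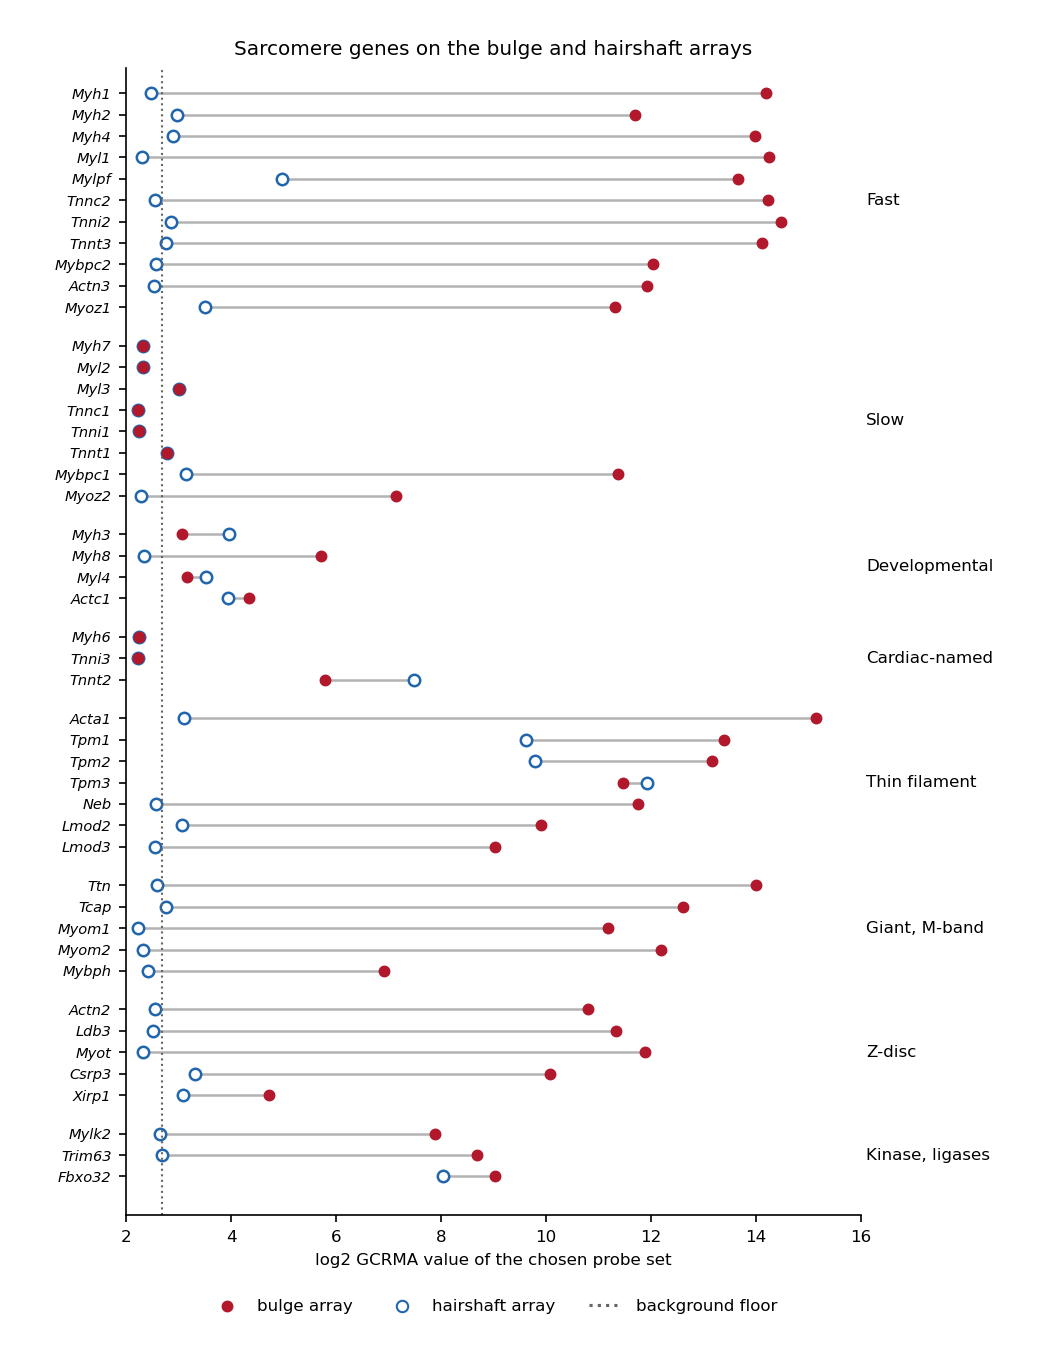
Log2 GCRMA value (x axis) of each of the 46 genes (y axis, grouped by role) on the bulge array (filled red) and the hairshaft array (open blue), with the background floor of 2.68 as a dotted line; each point is 1 array. The 11 fast isoforms lie between 11.32 and 14.48 in the bulge, whereas 6 of the 8 slow isoforms lie near the floor on both arrays.

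Markers of several tissues differed between the same arrays. The 8 markers of skeletal muscle fibres that are not in the set (6 of them fibre type genes described further on) ranged from 9.28 to 14.11 in the bulge and from 2.35 to 3.16 in the hairshaft. Heart markers (Nppa, Nppb, Myl7, Mybpc3 and Gja5) ranged from 2.23 to 3.15 on both arrays, with 4 of 5 not above the floor. Of the smooth muscle markers, 5 of 5 were higher in the bulge by 2-fold or more and none by 8-fold (4.93 to 11.12 in the bulge, 3.72 to 9.69 in the hairshaft). The 5 fat cell markers analysed ranged from 6.82 to 14.92 in the bulge and from 2.37 to 5.69 in the hairshaft, and the 5 endothelial markers from 5.60 to 7.83 and from 2.34 to 2.99. Among the fat cell markers Car3 gave both upper ends, and whether Car3 reads fat cells alone was not tested. Fabp4 followed, at 13.87 and 4.19. Of 7 bulge markers, 6 were higher in the bulge by 2-fold or more (all but Krt15). Of 7 hair shaft keratins, 5 were higher in the bulge by this limit and 0 in the hairshaft, so the hairshaft array did not carry its defining keratins at a higher level. The part of these tissues in the differences below was not tested.

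The fast myosin heavy chains were among the genes furthest apart. Myh4, the heavy chain of the fastest (type IIb) fibres, read 13.98 in the bulge against 2.90 in the hairshaft, a difference of 11.08. Myh1, the heavy chain of type IIx fibres, was 14.20 and 2.48, at least 11.52 apart. Myh2, the heavy chain of the more oxidative type IIa fibres, was 11.70 and 2.97, a difference of 8.73 (425-fold). All 3 were thus high in the bulge and close to the floor in the hairshaft.

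The measurement of Myh1 rests on probe sets that are not plain ones. Its chosen probe set, with a name ending in _x_at, belongs to a class whose probes can match other transcripts. A further one, of another class with a name ending in _a_at, read 13.70 and 2.35, at least 11.02 apart. The only plain probe set of Myh1 read 3.997 in the bulge against 3.25 in the hairshaft, a difference of 0.75. Myh4 had plain probe sets only, with differences of 11.08 and 7.57. Heavy chains of fast fibres are near-identical in sequence, and which transcripts each probe set reads was not analysed. The Myh1 value was therefore not assigned to Myh1 alone. Whether the values of Myh2 and Myh4 belong to them alone was not tested either.

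The slow and cardiac heavy chains lay under the floor in both structures. Myh7, the heavy chain of slow (type I) fibres and of the heart ventricle, was listed at 2.33 on both arrays, and Myh6, the cardiac alpha chain, at 2.24 on both. The developmental chains differed from each other: Myh8, the perinatal chain, read 5.72 in the bulge against 2.34 in the hairshaft, at least 3.04 apart (at least 8.24-fold). Myh3, the embryonic chain, read 3.08 in the bulge against 3.96 in the hairshaft, a difference of -0.89, which is under 2-fold. The 8-fold call of Myh8 depends on the floor, and with a stricter floor, the 99th percentile of those receptors, its difference was at least 1.51, which no longer shows 8-fold.

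These heavy chain genes follow each other on chromosome 11 in the order Myh3, Myh2, Myh1, Myh4 and Myh8, with no other protein-coding gene between them in the RefSeq annotation. Along this row the differences were -0.89, 8.73, at least 11.52, 11.08 and at least 3.04. That of Myh1 was not assigned to it alone. Their promoters are shown because genes of this single cluster had such different values. Each line gives the 250 bases before the annotated start (RefSeq, GRCm38.p6), and capitals mark the MEF2 motif, the A/T-rich site bound by MEF2 transcription factors of muscle, searched on both strands.
Myh3, chr11:67078050-67078299, plus strand: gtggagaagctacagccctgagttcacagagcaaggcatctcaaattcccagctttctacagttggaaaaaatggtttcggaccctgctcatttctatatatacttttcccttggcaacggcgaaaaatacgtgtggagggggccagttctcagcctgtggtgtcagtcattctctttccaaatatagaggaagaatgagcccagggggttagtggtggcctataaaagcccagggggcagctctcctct
Myh2, chr11:67170777-67171026, plus strand: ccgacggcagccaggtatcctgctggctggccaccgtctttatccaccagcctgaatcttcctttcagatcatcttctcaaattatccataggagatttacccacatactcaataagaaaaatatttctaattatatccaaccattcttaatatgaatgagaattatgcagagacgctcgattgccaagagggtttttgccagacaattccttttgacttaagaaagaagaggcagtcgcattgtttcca
Myh1, chr11:67199852-67200101, plus strand: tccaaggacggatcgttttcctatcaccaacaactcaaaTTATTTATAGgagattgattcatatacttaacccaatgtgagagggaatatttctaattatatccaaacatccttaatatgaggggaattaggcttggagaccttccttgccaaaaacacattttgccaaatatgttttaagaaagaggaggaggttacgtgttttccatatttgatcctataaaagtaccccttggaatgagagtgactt
Myh4, chr11:67237562-67237811, plus strand: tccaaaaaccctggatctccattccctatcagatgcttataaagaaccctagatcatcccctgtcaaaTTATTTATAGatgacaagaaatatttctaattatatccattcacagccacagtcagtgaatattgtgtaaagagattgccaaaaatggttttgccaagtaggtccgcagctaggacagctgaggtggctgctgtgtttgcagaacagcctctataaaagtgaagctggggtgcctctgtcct
Myh8, chr11:67276874-67277123, plus strand: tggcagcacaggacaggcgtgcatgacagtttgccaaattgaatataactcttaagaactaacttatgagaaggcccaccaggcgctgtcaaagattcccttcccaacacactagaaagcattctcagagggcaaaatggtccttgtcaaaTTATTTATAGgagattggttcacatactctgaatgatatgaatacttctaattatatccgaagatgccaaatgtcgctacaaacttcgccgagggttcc

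The MEF2 motif was present in 3 of these 5 windows. It lay 211 to 202 bases before the start of Myh1, 182 to 173 before that of Myh4 and 99 to 90 before that of Myh8, with the same letters in all 3, and each match overlapped a TATAAA read on the opposite strand. The motif was absent from the windows of Myh3 and Myh2. Of all 32851 promoter windows of this length, 2.92% held it. Of the 41 windows found for 34 of the 46 genes, 5 (12.2%) did. They were those of Myh1, Myh4 and Myh8, from this single cluster, and those of Myoz2 and Ttn. The windows of Myh1, Myh4 and Myh8 thus shared a motif that the window of Myh2, with a difference of 8.73, did not hold. A match describes letters and not binding.

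Myosin light chains divided in the same way. Myl1, the essential light chain of fast fibres, read 14.25 in the bulge against 2.30 in the hairshaft, at least 11.57 apart. Mylpf, the fast regulatory light chain, was 13.66 and 4.97, a difference of 8.68 (411-fold), with a hairshaft value clearly above the floor. Myl2 and Myl3, the regulatory and essential light chains of slow fibres and the ventricle, were listed at 2.33 and 3.004 on both arrays. The plain probe set of Myl3 read 2.53 in the bulge against 2.997 in the hairshaft. Myl4, the atrial and embryonic light chain, read 3.17 in the bulge against 3.53 in the hairshaft, under 2-fold apart. The fast light chains were thus far apart between the arrays, and the slow and embryonic ones lay near the floor on both.

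Mylk2, the kinase that phosphorylates the regulatory light chain in skeletal muscle, read 7.88 in the bulge against 2.64 in the hairshaft. Its difference was at least 5.21 (at least 37.0-fold).

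Each of the 3 troponin subunits has a fast and a slow form among the members. Tnnc2, the calcium-binding subunit of fast fibres, read 14.23 in the bulge against 2.56 in the hairshaft, at least 11.56 apart. Its slow and cardiac counterpart Tnnc1 was listed at 2.23 on both arrays, the lowest value in the table. Of the calcium sensor, the fast form thus differed between the arrays, and the slow form gave no measured level. Tnni2, the inhibitory subunit of fast fibres, was 14.48 and 2.85, a difference of 11.63. Its other probe sets read 12.14 and 3.85, and 3.96 and 2.28 (at least 1.28 apart). The slow form Tnni1 was listed at 2.25 and the cardiac form Tnni3 at 2.23 on both arrays, so that of the inhibitory subunits the fast form alone was above the floor. Tnnt3, the fast tropomyosin-binding subunit, was 14.11 and 2.75, a difference of 11.36, and its slow form Tnnt1 was listed at 2.79 on both. All 3 fast subunits were thus far above the floor in the bulge, and the slow ones were not above the floor or, for Tnnt1, barely above it.

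Tnnt2, the cardiac troponin T, went the other way. It read 5.78 in the bulge against 7.49 in the hairshaft, a difference of -1.70 (3.25-fold higher in the hairshaft). A further probe set gave 5.59 and 6.97 (-1.38), and both belong to classes that can match several transcripts, while the plain probe set read 2.98 on both arrays. No other member was higher in the hairshaft by 2-fold or more, and the other cardiac-named genes, Myh6 and Tnni3, were not above the floor.

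Troponin genes also lie in pairs on the chromosomes. Tnni2 and Tnnt3 are separated by 1 protein-coding gene on chromosome 7, and both were over 11 apart on the log2 scale. Tnnt1 and Tnni3 are direct neighbours on chromosome 7. Tnni3 was below the floor and Tnnt1, listed at 2.79 on both arrays, barely above it, so neither gives a measured difference. Tnni1 and Tnnt2, on chromosome 1 with 1 gene between them, did not read alike, with Tnni1 below the floor and Tnnt2 higher in the hairshaft. Myh6 and Myh7, neighbours on chromosome 14, were both below the floor.

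As a group, the 11 fast isoforms (Myh1, Myh2, Myh4, Myl1, Mylpf, Tnnc2, Tnni2, Tnnt3, Mybpc2, Actn3 and Myoz1) were each higher in the bulge by 8-fold or more. Their median difference was 11.08, or 10.22 without Myh1, and their range 7.82 to 11.63, with bounds taken at their value. Of the 8 slow isoforms, 2 were higher in the bulge by 8-fold or more (Mybpc1 and Myoz2). Myl3 and Tnnt1 were listed at the same value on both arrays, and Myh7, Myl2, Tnnc1 and Tnni1 were not above the floor. The share of all 13329 genes above the floor that were higher in the bulge by 8-fold or more was 3.02%. The median over the 4 slow isoforms above the floor was 2.23, a value midway between separate pairs, and over all 8 without a floor it was 0.00. The developmental group had a median of 0.02 over its 4 members (Myh3, Myh8, Myl4 and Actc1).

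A difference of 0.00 near the floor is not a measured equality. Of the 82 probe sets, 13 had exactly the same deposited value on both arrays, as had 38.3% of all 45101 probe sets, and the 13 lay between 2.23 and 3.004. For Myh7, Tnnc1 and Tnni1 the values therefore give no level and no difference. The 0.00 of Myl3 and Tnnt1 is not a measured difference either. Both are nevertheless counted among the genes under 2-fold apart and in the slow median.

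**Figure D2:**
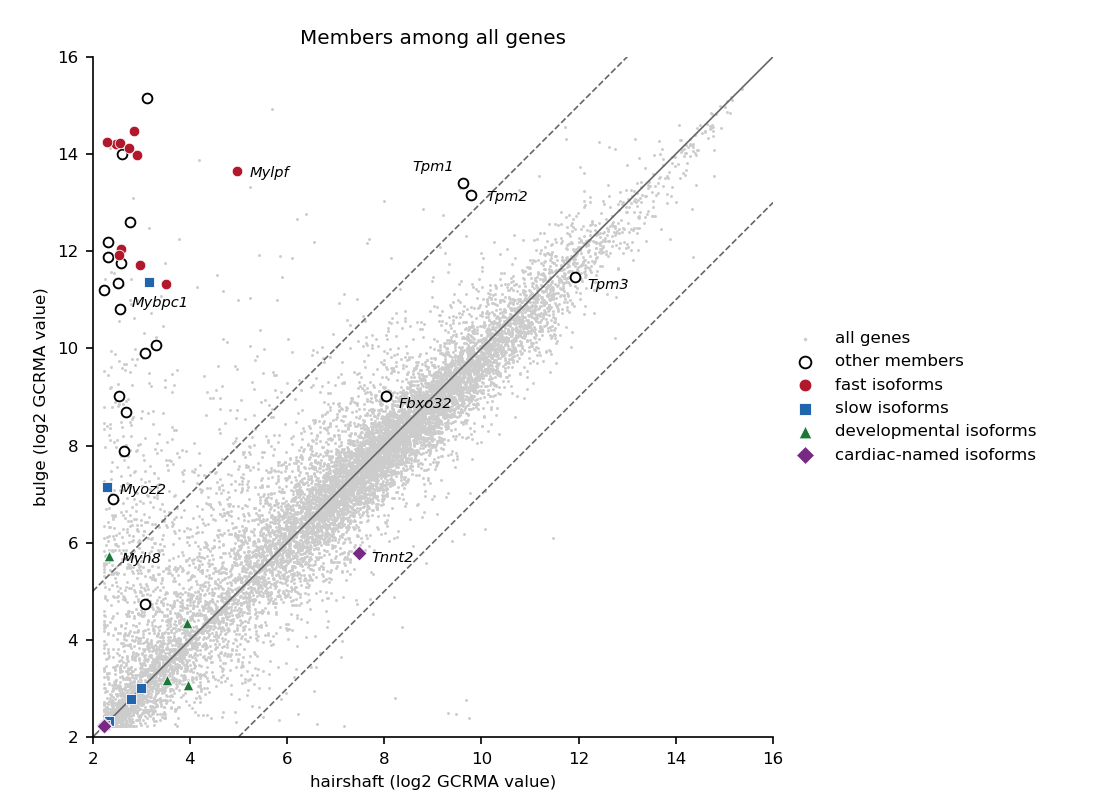
Log2 GCRMA value on the hairshaft array (x axis) against the bulge array (y axis) for all 18194 genes (grey) and the 46 genes of the set, coloured by isoform group; the solid line marks equal values and the dashed lines 8-fold differences. The fast isoforms sit at the upper left, with Mybpc1 among them and Myoz2 and Myh8 lower, while Tnnt2 lies below the line.

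Myosin-binding protein C, which ties the heads of myosin to the thick filament, was higher in the bulge in its fast and its slow form. Mybpc2, the fast form, read 12.05 in the bulge against 2.57 in the hairshaft, at least 9.37 apart. Mybpc1, named the slow form but known from fast fibres too, was 11.37 and 3.15, a difference of 8.22 (299-fold). All 3 probe sets of Mybpc1, each a plain one, were higher in the bulge, by 5.90, 8.03 and 8.22. The related Mybph was 6.91 and 2.42, at least 4.23 apart. With the 99th percentile floor Mybph was at least 2.69 apart, which no longer shows 8-fold.

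The calsarcins, which link the Z-disc to calcineurin, were both higher in the bulge. Myoz1, the form of fast fibres, read 11.32 in the bulge against 3.50 in the hairshaft, a difference of 7.82. Myoz2, the form of slow fibres and the heart, was 7.14 and 2.29, at least 4.46 apart (at least 22.1-fold), and with the 99th percentile floor at least 2.93 apart. A second probe set of Myoz1 read 5.45 and 2.24.

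Other Z-disc proteins shared the direction. Actn3, the alpha-actinin of fast fibres, read 11.92 in the bulge against 2.53 in the hairshaft, at least 9.25 apart, and Actn2, the alpha-actinin of all striated fibres, was 10.80 and 2.56, at least 8.13 apart. Both alpha-actinins were thus below the floor in the hairshaft. Myot, the actin-bundling myotilin, was 11.88 and 2.32, and Ldb3, the Z-disc scaffold also called cypher, was 11.33 and 2.52. The 3 probe sets of Ldb3 differed in size, at 8.82, 7.93 and 1.31 without a floor, but not in direction. Csrp3, the muscle LIM protein, which is known from slow fibres and the heart, was 10.07 and 3.31, a difference of 6.76 (109-fold). Xirp1, an actin-binding protein of stressed and regenerating muscle, had a smaller difference of 1.65 (4.73 and 3.08), which was at least 0.52 with the 99th percentile floor.

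The giant proteins and the M-band were high in the bulge and near or below the floor in the hairshaft. Ttn, titin, read 14.005 in the bulge against 2.59 in the hairshaft, at least 11.33 apart, and Neb, nebulin, was 11.75 and 2.58, at least 9.07 apart. Tcap, the titin cap at the Z-disc, was 12.60 and 2.76, a difference of 9.84 (920-fold). The M-band proteins Myom1 and Myom2 were 11.19 and 12.18 in the bulge and 2.23 and 2.32 in the hairshaft; Myom2, known as the form of fast fibres, was at least 9.51 apart. The probe sets of Ttn spanned the widest range, from 0.00 to 11.41 without a floor, with the 2 largest values in classes that can match several transcripts and 4.77 for the brightest plain probe set.

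**Figure D3:**
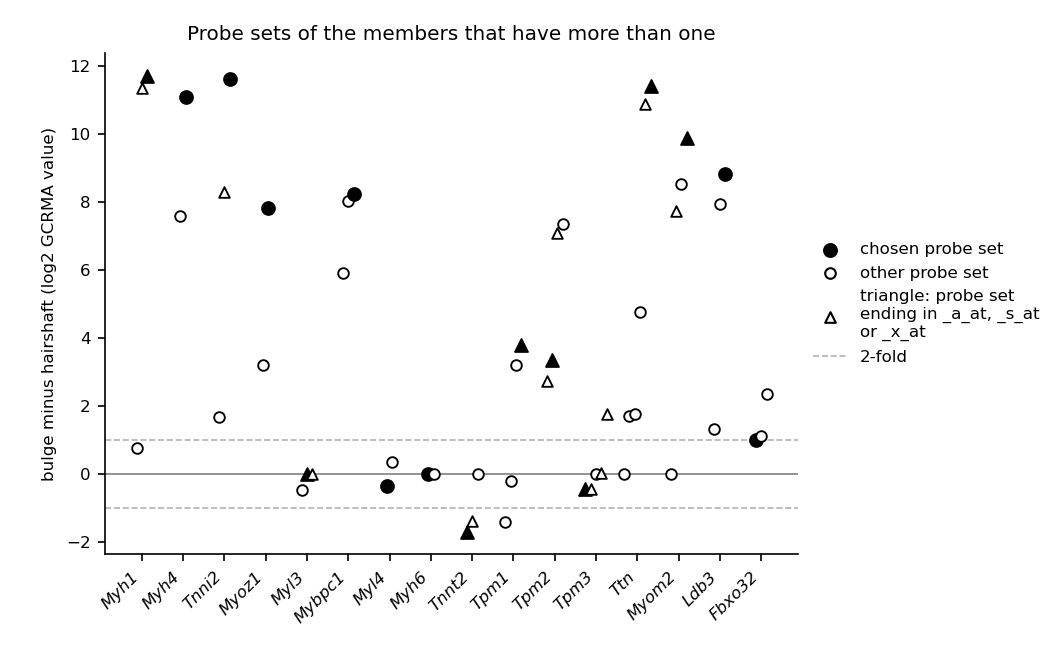
Difference of each probe set (y axis, bulge minus hairshaft in log2 GCRMA values, no floor) for the 16 members that have more than 1 probe set (x axis); filled symbols are the chosen probe sets, triangles those whose probes can match several transcripts, and dashed lines 2-fold. Probe sets of Mybpc1 and Myh4 lie well above the 2-fold line. Those of Myh1, Tpm1, Tpm3, Ttn, Myom2 and Fbxo32 are spread from at or below the line to above it.

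Probe sets of the same gene were the only further readings of it. They come from the same 2 arrays and are not replicates of the bulge or the hairshaft. Of the 82, 54 were higher in the bulge by 2-fold or more, 43 of these by 8-fold or more, 3 were higher in the hairshaft by 2-fold or more, 15 were under 2-fold apart and 10 were not above the floor. Of the 57 plain probe sets, 38 were higher in the bulge by this limit, and 1, of Tpm1, in the hairshaft. Shares over all probe sets of the array were not computed, so these counts have no direct comparison. Over all genes above the floor, 11.4% were higher in the bulge by 2-fold or more and 3.02% by 8-fold or more. The share higher in the hairshaft by 2-fold or more was 4.91%.

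Skeletal alpha-actin was far apart between the arrays. Acta1, the main actin of adult skeletal thin filaments, read 15.15 in the bulge against 3.11 in the hairshaft, a difference of 12.04. Its cardiac counterpart Actc1, which is also the actin of embryonic skeletal muscle, was 4.34 and 3.94, a difference of 0.40 (1.32-fold). The adult and the embryonic form thus differed in how far apart the arrays were. Their promoters are shown as a pair because these actins are nearly the same protein with very different results here; capitals mark the CArG box, the site of serum response factor, and each line gives the 250 bases before the RefSeq start on GRCm38.p6.
Acta1, chr8:123894776-123895025, minus strand: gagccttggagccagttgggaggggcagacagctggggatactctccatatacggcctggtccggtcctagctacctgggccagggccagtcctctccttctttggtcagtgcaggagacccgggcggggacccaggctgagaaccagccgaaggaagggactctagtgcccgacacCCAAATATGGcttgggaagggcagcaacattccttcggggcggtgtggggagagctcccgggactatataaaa
Actc1, chr2:114052876-114053125, minus strand: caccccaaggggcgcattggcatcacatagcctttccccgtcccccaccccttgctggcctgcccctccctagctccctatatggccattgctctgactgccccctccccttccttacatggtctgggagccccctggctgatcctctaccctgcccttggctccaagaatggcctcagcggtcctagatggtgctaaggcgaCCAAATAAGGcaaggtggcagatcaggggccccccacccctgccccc

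Both windows held a CArG box, 73 to 64 bases before the start of Acta1 and 47 to 38 before that of Actc1. The box, searched on both strands, was present in 1.47% of all promoter windows and in 17.1% of the 41 windows of the set (those of Acta1, Actc1, Ldb3, Myh4, Myl3 and Myom1). It was thus found with large differences, with a small one and with the value of Myl3 that was the same on both arrays. The MCAT motif, CATTCC on either strand, was in 31.7% of the windows of the set and 12.6% of all, the E-box CANNTG in 85.4% and 66.2%, and TATAAA in 24.4% and 12.4%.

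The leiomodins, which nucleate actin filaments in striated muscle, were higher in the bulge. Lmod2 read 9.90 in the bulge against 3.07 in the hairshaft, a difference of 6.83 (114-fold), and Lmod3 was 9.02 and 2.55, at least 6.35 apart.

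Tropomyosins, which cover the myosin sites on actin and are also made in non-muscle cells from alternative exons, were present on both arrays. By its chosen probe set Tpm1 read 13.39 in the bulge against 9.61 in the hairshaft, a difference of 3.78, but its plain probe sets gave 10.24 and 10.45 (-0.21), 4.79 and 6.21 (-1.41), and 5.44 and 2.23 (at least 2.76). The direction of Tpm1 thus turned with the probe set. Tpm2 was 13.15 and 9.79, a difference of 3.36, and its other probe sets gave 2.73, 7.07 and 7.35, all towards the bulge. Tpm3, the tropomyosin of slow fibres and of many non-muscle cells, was 11.47 and 11.92, a difference of -0.45, with 1 of its 5 probe sets higher in the bulge by more than 2-fold (5.30 and 3.55). Which transcripts each probe set reads was not analysed here.

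The ubiquitin ligases of muscle breakdown were not alike. Trim63, also called MuRF1, read 8.69 in the bulge against 2.68 in the hairshaft, a difference of 6.01 (64.4-fold). Fbxo32, also called atrogin-1, was 9.03 and 8.03, a difference of 0.996 that lay just under 2-fold (1.99-fold), and its other probe sets gave 1.12 and 2.33. Trim63 was at the floor in the hairshaft, and Fbxo32 was well above it on both arrays.

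Fibre type genes outside the sarcomere were set beside the isoforms. Of 10 genes of fast fibres analysed, 10 were higher in the bulge by 2-fold or more and 8 by 8-fold or more, with a median of 8.36. Among all genes above the floor these shares were 11.4% and 3.02%. The calcium pump Atp2a1 read 14.11 in the bulge against 2.35 in the hairshaft, creatine kinase Ckm 14.07 and 2.76, the calcium buffer Pvalb 13.10 and 2.83, glycogen phosphorylase Pygm 11.67 and 2.56, the calcium store protein Casq1 11.30 and 2.63, and the enolase Eno3 13.33 and 5.24. The 11 genes listed for slow or oxidative fibres included regulators of fibre type, of which Sox6 is not itself a marker of slow fibres. Of the 11, 7 were higher in the bulge by 2-fold or more and 5 by 8-fold or more. Their median was 2.56 over the 10 above the floor, Sox6 among them. Nfatc1 (9.09 and 7.96), among the 7, is also counted with the bulge markers above. The regulator Sox6 was 7.62 and 8.27. The slow calcium pump Atp2a2, which many cells make, was 11.10 and 11.47, the slow store protein Casq2 4.75 and 4.18, and phospholamban (Pln) was not above the floor, at 2.67 on both arrays. Myoglobin (Mb), the oxygen carrier of oxidative fibres, was 11.76 and 3.05, a difference of 8.71, and sarcolipin (Sln) was 7.97 and 2.26. The lipid carriers Cd36 (8.47) and Fabp3 (5.47) and the dehydrogenase Ldhb (3.59) were also higher in the bulge; Cd36 is made by fat and endothelial cells too, whose markers are given above.

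A further 27 sarcomere genes outside the set were described in the same way. Of these, 19 were higher in the bulge by 2-fold or more and 12 of them by 8-fold or more, none was higher in the hairshaft by 2-fold, 3 were under 2-fold apart (Myh7b, Nebl and Pdlim5) and 5 were not above the floor. Their median difference was 4.48. With bounds ranked at their value, the largest were in Smpx, a small muscle protein, at 11.88 and 2.34, in Cmya5, a large costamere protein, at 11.54 and 2.44, and in Klhl41, which stabilises nebulin, at 10.31 and 3.06. Mylk4, Nrap and Hspb7 followed, with differences of at least 7.06, at least 7.01 and 6.97. The cardiac genes Mybpc3 and Myl7 and the cardiac light chain kinase Mylk3 were below the floor on both arrays. Beside the counts of this list, the shares of all genes above the floor were 11.4% at 2-fold and 3.02% at 8-fold towards the bulge.

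Non-muscle and smooth muscle counterparts were much closer on both arrays. Of 20 genes, 10 were between 2-fold and 8-fold higher in the bulge, 10 were under 2-fold apart and none reached 8-fold, with a median of 0.97. Among all genes above the floor, 11.4% were higher in the bulge by 2-fold or more and 3.02% by 8-fold or more. The non-muscle actins Actb (14.42 and 14.53) and Actg1 (13.93 and 13.99) and the non-muscle heavy chain Myh9 (11.82 and 11.80) were nearly level, at bright values. The smooth muscle actin Actg2 had the largest difference, 2.66, followed by the light chain Myl9 at 2.18, the actin-binding protein Tagln at 2.04, the kinase Mylk at 2.02, the leiomodin Lmod1 at 1.98 and the heavy chain Myh11 at 1.77. The skeletal genes Acta1, Myh4, Lmod3 and Mylk2 thus had larger differences than these smooth muscle forms of actin, myosin, leiomodin and light chain kinase. This does not hold for every skeletal heavy chain. By chosen probe sets, Myh1, Myh2 and Myh8 also exceeded Myh11, whereas Myh3 (-0.89) did not and Myh7 was not above the floor.

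**Figure D4:**
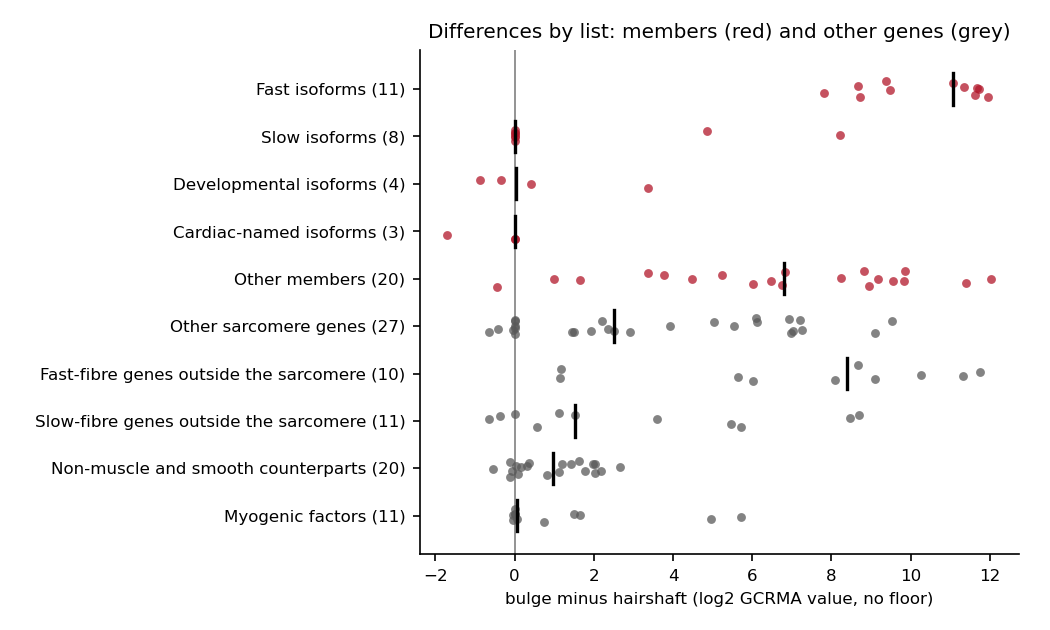
Difference of each gene (x axis, bulge minus hairshaft in log2 GCRMA values, no floor) by list (y axis, number of genes in brackets), with a black bar at each list's median; red points are genes of the set and grey points other genes. The fast isoforms lie between 7.82 and 11.95, 6 of 8 slow isoforms at 0.00, and the non-muscle and smooth muscle counterparts between -0.56 and 2.66.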

How the data were processed

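Per the labels' protocols, RNA was isolated with a kit for small samples and 30 ng was amplified linearly and biotin-labelled; such amplification can change the measured values. The deposited values are log2 summaries (a scale read from the values) made by the authors with GCRMA, per the submitters' processing notes, with version and settings not given in the sources used here. When sorted, the columns differed by at most 0.19, so no scaling was added, and 0 columns were left unmatched. Of the probe sets, 34958 carried 1 symbol, 932 several and 9211 none; symbols were updated through Entrez identifiers for 34754 against RefSeq names of GRCm38.p6.

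Genes took the probe set with the highest mean, and plain means a name without _a_at, _s_at or _x_at. Counts used fixed limits of 2-fold and 8-fold; no test was run, as 1 array per group leaves no residual degrees of freedom. Every member is named, and, of each accompanying list, up to 6 genes with the largest difference and any at least 2-fold the other way; other genes named were chosen after their values were seen. The members and lists were chosen with earlier results of these data known. The counting was tested on simulated data. There were 9 alternatives: floors at the 99th percentile and at the median of all probe sets, no floor, the mean of probe sets, plain probe sets, an offset of 16, a loess trend (span 0.3), the median and quantile normalization. Promoter sequences are RefSeq's, for 34 of the 46 genes. The tools were matplotlib 3.10.9, numpy 2.4.6, pandas 2.3.3 and statsmodels 0.14.6 under Python 3.11.15.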

Additional observations from a re-analysis of the deposited data

How the results depend on the processing

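The count higher in the bulge by 2-fold or more ran from 26 to 33 over the 9 alternatives and that at 8-fold or more from 25 to 31, within 1.5 times the reported 32 and 31. With plain probe sets only, 26 and 25 of the same genes remained; Acta1, Myl1, Tnnt3 and Tcap have no plain probe set, Myh1 fell to 0.75 and Tpm1 was reversed, at -0.21, and the count higher in the hairshaft became 0. The median of all members was 7.11 with the 99th percentile floor, 6.62 without a floor, 6.26 with probe sets averaged, 6.76 with plain probe sets and 6.44 with the offset. That of the fast isoforms was 9.77 with the 99th percentile floor, 9.25 with probe sets averaged or plain ones only, and 9.43 with the offset. That of the slow isoforms was 5.04 and 5.78 with the 99th percentile and all-probe-set floors, 0.00 without a floor, 4.46 with plain probe sets and 1.40 with the offset, since 4 or fewer members above a floor decide it. The developmental median was 0.82 with the 99th percentile floor, and the cardiac-named one, of Tnnt2 alone at -1.70, was -1.03 with averaged probe sets and 0.00 without a floor and with plain probe sets. Of 349 single-gene values, 98 moved by over 1.5-fold, 96 of them to a smaller difference, and none under loess, median or quantile scaling. Median scaling could move none, because the median probe set difference was already 0. Quantile scaling had little to change, as the sorted columns differed by at most 0.19. These 2 settings therefore do not test the values. Leaving out a replicate was not possible with 1 array per group. A paired analysis was likewise not possible, as each structure has 1 array. Of the slow isoforms, signal near the floor leaves Myoz2 with a bound and Myh7, Myl2, Tnnc1 and Tnni1 with no difference.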

Other observations

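Of 11 myogenic transcription factors, 4 were higher in the bulge by 2-fold or more, and 2 of these by 8-fold or more. None was higher in the hairshaft by 2-fold, 3 were under 2-fold apart and 4 were not above the floor. Among all genes above the floor, the shares towards the bulge were 11.4% at 2-fold and 3.02% at 8-fold. Myf6, the factor of mature fibres also called MRF4, read 7.20 in the bulge against 2.23 in the hairshaft, at least 4.52 apart, and Mef2c, the MEF2 factor of striated muscle, was 9.20 and 3.49, a difference of 5.72. Vgll2, a cofactor in muscle, and Six4, a homeobox factor, had differences of 1.65 and 1.49. The satellite cell factor Pax7 was 2.30 and 2.23, and Myf5, Myod1 and Myog, which act in muscle precursors, were 2.27, 2.38 and 2.42 in the bulge, none above the floor. Mef2a (11.03 and 11.07) and serum response factor, Srf (7.07 and 7.11), were nearly level.

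At the junction of nerve and fibre, the acetylcholine receptor subunit Chrna1 read 4.19 in the bulge against 2.93 in the hairshaft, while Chrne, the adult receptor subunit, and the kinase Musk were listed at the lowest value, 2.23, on both arrays.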
